A study of Callithrix jacchus with 20 samples.

Results

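The genes described here write, erase or help to place methyl groups on histone lysines. They were chosen by symbol alone, and the choice took in the KDM demethylases, the KMT, SETD and SMYD methyltransferases, the NSD family, the H3K9 methyltransferases, DOT1L, ASH1L and ASH2L, and the core of Polycomb repressive complex 2 (PRC2) with its partner JARID2. Of the 25102 genes in the count table, 57 matched, 18 demethylases and 39 methyltransferases or subunits of their complexes. KDM4E had between 0 and 2 counts in a library and was too low to test, which left 56 genes. PRDM9 was not analysed here.

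RNA came from 1 line of common marmoset induced pluripotent stem cells, DPZ_cjiPSC2, derived from fibroblasts, so every library shares the same donor. There were 20 libraries, 2 biological replicates in each of 10 conditions. Undifferentiated cjiPSCs were kept in TESR (a commercial feeder-free medium) or in cjPSCM, a medium made for marmoset cells. The study lists cjPSCM as N2B27 medium with the GSK3 inhibitor CHIR, the WNT inhibitor IWR-1, A419259, vitamin C, LIF, FGF2 and TGFβ. Cells in cjPSCM thus received CHIR already before the pre-ME step. From TESR and from cjPSCM cultures, precursors of mesendoderm (pre-ME) were made with CHIR and the ROCK inhibitor Y-27632, with or without Activin A (ActA). From the pre-ME of cjPSCM cultures only, embryoid bodies were grown for 4 days with BMP4, LIF, SCF, EGF and Y-27632, and were then sorted into primordial germ cell-like cells (cjPGCLCs) and marker-negative somatic cells, again for each arm with or without ActA at the pre-ME step. The labels of the sorted cells name EPCAM with CXCR4 or INTα6 as the surface markers, and the methods of the study name INTα6 and CXCR4. No sorted cells came from TESR cultures. The study describes the replicates as biologically independent. P-values rest on a spread between replicates that was estimated jointly from all 20 libraries. Replicates of cjiPSCs were further apart than the others, so p-values of comparisons with cjiPSCs may be too small.

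Lysine methylation on histone tails is read by other proteins, and its effect depends on the residue. Methylation of H3K4 and H3K36 is typical of active promoters and transcribed genes, H3K27 trimethylation by PRC2 silences developmental genes, and H3K9 methylation marks heterochromatin. Germ cell precursors of mouse and human are known for a loss of H3K9 dimethylation and a gain of H3K27 trimethylation while DNA methylation is erased, which is why the enzymes of these marks are commonly examined in germ cell-like cells. RNA levels, which are the only quantity measured here, say nothing of the marks themselves.

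Levels below are the authors' normalised counts, the read counts of a gene divided by a size factor for its library. They are not corrected for gene length, so each gene is compared between conditions and never with another gene. The libraries held 4784964 to 22067099 reads counted in genes, with the lowest totals in sorted cells (median 7110664.5) and the highest in pre-ME (median 18174975). A count of 3 corresponded to 1.40 to 6.92 normalised counts. Reads that fell in no annotated gene made up 10.6% to 19.3% in cjiPSCs, 17.2% to 20.6% in pre-ME and 19.7% to 23.2% in sorted cells. Within cjiPSCs in cjPSCM this share was 12.2% in replicate 1 and 19.3% in replicate 2. Its part in the comparisons with cjiPSCs was not tested. Replicates of cjiPSCs were further apart than those of the other conditions: over the tested genes, replicate log2 differences had a standard deviation of 0.45 in cjPSCM and 0.40 in TESR, against 0.13 to 0.28 in the other conditions. Pre-ME markers were above 3 counts in all 4 pre-ME conditions (5 of 5 genes), with summed levels of 1630 to 5678 normalised counts against 34.1 to 675 in cjiPSCs. The genes contributed unequally: in cjPSCM pre-ME, EOMES had a mean of only 30.8 with ActA and 6.40 without. In these bulk libraries, more expressing cells and more RNA per cell cannot be told apart.

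Most of the 56 genes varied little. The ratio of the highest to the lowest condition mean had a median of 1.96 and was under 2 for 30 genes. It reached 3 for 7 genes: SMYD1 (113.5), JARID2 (4.64), KDM7A (4.42), KMT2C (4.01), EZH1 (3.84), SETD7 (3.80) and DOT1L (3.30). These ratios are a description and were not tested. The highest mean lay most often in somatic cells of the ActA arm (15 genes), and the lowest mean most often in cjiPSCs, of cjPSCM for 12 genes and of TESR for 10, or in pre-ME made without ActA from cjPSCM cultures (10 genes).

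**Figure D1:**
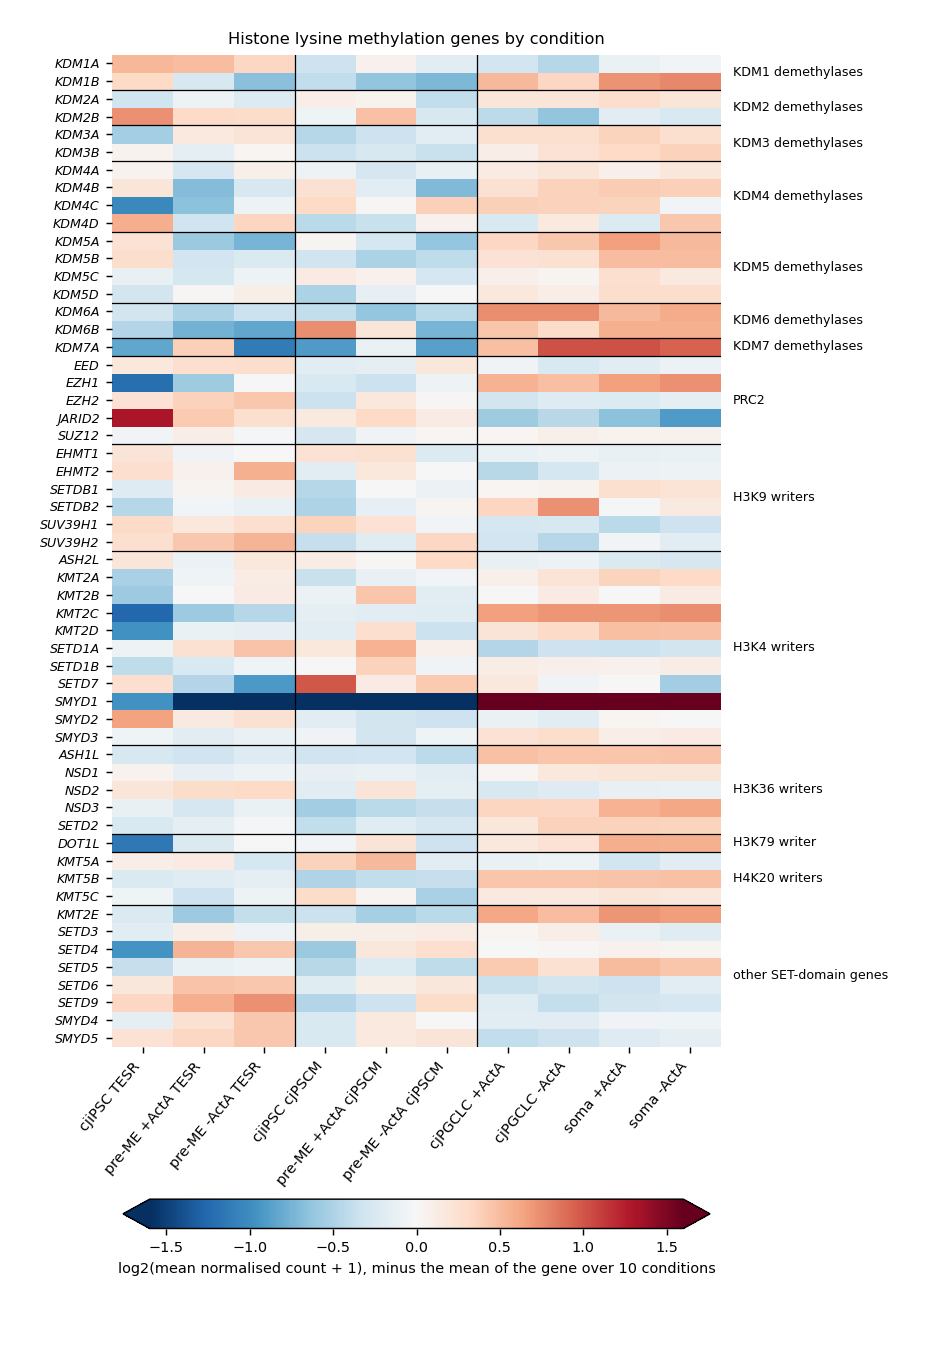
Colour shows, for each tested gene (rows) and condition (columns), log2(mean normalised count + 1) minus the mean of that gene over the 10 conditions, and each mean is over 2 libraries. The colour no longer changes beyond the ends of the scale. SMYD1 stands out with high values in all 4 sorted populations (140.1 to 345 normalised counts in single libraries) and low values elsewhere.

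A gene is said to have risen, fallen or changed where its adjusted p was under 0.05 in edgeR's quasi-likelihood test (Benjamini-Hochberg adjustment over all 15797 tested genes). By that rule 53 of the 56 genes changed in at least 1 of 15 comparisons, and EHMT1, NSD1 and SETD1B in none. Of all tested genes 89% did, so each count has to be read beside the share of all tested genes that passed. SMYD1 was the only gene of the 56 that also passed a log2 fold change of 2, and it did so in 5 comparisons. These were the 4 of sorted cells with pre-ME, where 8.36% and 7.88% of all genes passed both limits in cjPGCLCs with and without ActA and 8.3% and 7.94% in somatic cells, and pre-ME with ActA against cjiPSCs in TESR (6.96%). Each condition had only 2 libraries, so every fit was repeated without each library in turn. Where a call was then lost, the libraries are named with the adjusted p without them, or with the highest where there were several, and the log2 fold change kept its sign each time.

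In cells sorted on day 4, many of the genes differed from the pre-ME of the same arm. With ActA, 31 of 56 genes differed in cjPGCLCs, 20 higher and 11 lower (55.4%, against 48.4% of all genes), and 26 differed in somatic cells, 18 higher and 8 lower (46.4%, against 48% of all genes). Without ActA, 27 differed in cjPGCLCs, 21 higher and 6 lower (48.2%, against 40% of all genes), and 30 differed in somatic cells, 23 higher and 7 lower (53.6%, against 42.2% of all genes). The shares called were near those of all genes. By direction, 32.1% to 41.1% of the 56 genes rose and 10.7% to 19.6% fell. Among all genes, 25.3% and 21.5% rose in cjPGCLCs with and without ActA and 23.8% and 20.6% in somatic cells, while 23% and 18.5%, and 24.2% and 21.7%, fell. The median log2 fold change of the 56 genes was 0.13 and 0.26 in cjPGCLCs and 0.21 and 0.28 in somatic cells, with and without ActA, beside 0.04, 0.01, 0.01 and 0.00 over all genes. Both populations were compared with the same pre-ME libraries, so their counts are not independent. The count of 31 was 19 without replicate 1 of pre-ME and 18 without replicate 1 of cjPGCLCs, and the count of 30 was 19 without replicate 2 of pre-ME.

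**Figure D2:**
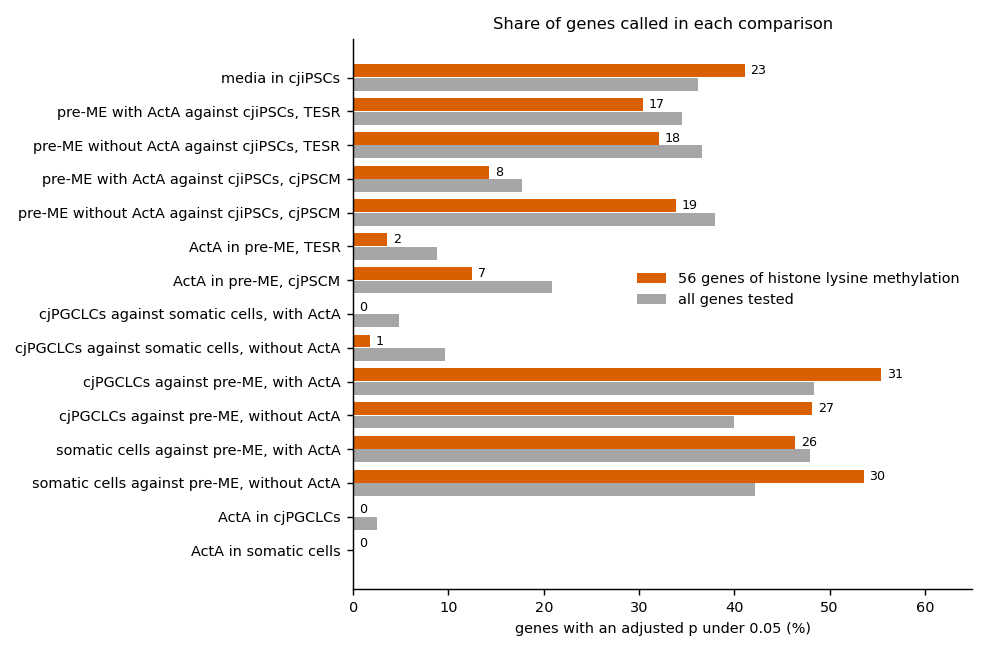
Bars give the percentage of genes with an adjusted p under 0.05 in each comparison, for the 56 histone lysine methylation genes and for all 15797 tested genes. The 2 shares lie close together in most comparisons, as in somatic cells of the ActA arm against pre-ME (46.4% and 48%).

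Demethylases were 17 of the 56 tested genes. They made up 9 of the 20 that rose in cjPGCLCs with ActA and 11 of the 21 without. In somatic cells they made up 9 of 18 and 11 of 23. Of the 17 tested, 9 rose and 2 fell in cjPGCLCs of the ActA arm, 11 rose and none fell in cjPGCLCs of the arm without ActA, 9 rose and 1 fell in somatic cells with ActA, and 11 rose and 1 fell in somatic cells without it. Their median log2 fold changes were 0.37, 0.58, 0.41 and 0.56. Among the 39 methyltransferases and subunits, 11, 10, 9 and 12 rose and 9, 6, 7 and 6 fell, with medians of 0.03, 0.12, 0.10 and 0.09. The difference between the 2 classes was not tested.

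KDM6A and KDM6B remove methyl groups from H3K27 and so oppose PRC2. KDM6A had 183 and 184 normalised counts in pre-ME with ActA, and 222 and 194 without. It had 521 and 419 in cjPGCLCs with ActA and 496 and 449 without, and 395 and 414, and 473 and 374, in somatic cells. Every sorted library was above every pre-ME library. The log2 fold changes were 1.37 (SE 0.17, edgeR adjusted p = 9.71e-06) and 1.17 (adjusted p = 4.41e-05) in cjPGCLCs, and 1.14 and 0.98 in somatic cells, with and without ActA. The levels in cjiPSCs (198 to 260.0) and in the pre-ME of TESR cultures (191 to 232) lay near those of the cjPSCM pre-ME. Reads of KDM6A can be shared with its Y-linked copy UTY, which was not analysed here.

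KDM6B differed with medium, with ActA in cjPSCM pre-ME, and between pre-ME and the cells sorted on day 4 in the arm without ActA. It was not called between the sorted populations of either arm. It had 873 and 1425 normalised counts in cjiPSCs in TESR and 2557 and 2778 in cjPSCM, a log2 difference of 1.21 (SE 0.18, edgeR adjusted p = 6.51e-05) without overlap. Pre-ME of cjPSCM cultures had 1944 and 1705 with ActA and 1094 and 805 without. Relative to cjiPSCs in cjPSCM, KDM6B fell by 1.45 on the log2 scale without ActA (adjusted p = 2.03e-05), a call that no alternative processing removed. With ActA it fell by 0.53 (adjusted p = 0.0482), which no longer passed without any 1 of the 4 libraries (adjusted p up to 0.249), with a replicate block or within the 4 libraries alone. In cjPGCLCs it had 2308 and 2047 with ActA and 2072 and 1838 without, and in somatic cells 2412 and 2300.2, and 2253 and 2458. These sorted levels lay above pre-ME in each arm. KDM6B rose in the arm without ActA, by 1.03 in cjPGCLCs (adjusted p = 0.000264) and by 1.28 in somatic cells (adjusted p = 3.27e-05). In the ActA arm the log2 fold changes were 0.26 (95% interval -0.12 to 0.63, adjusted p = 0.24) and 0.36 (-0.01 to 0.74, adjusted p = 0.104), and no test compared the 2 arms in this step. The 8 sorted libraries of both arms ranged from 1838 to 2458.

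KDM7A, which removes dimethyl marks from H3K9 and H3K27, was the demethylase with the widest range. It had 182 and 196 normalised counts in TESR pre-ME without ActA and 486 and 581 with ActA, a rise of 1.50 on the log2 scale (SE 0.19, edgeR adjusted p = 7.4e-05) that passed under every alternative. In cjPSCM pre-ME it had 242 and 208 without ActA and 388 and 372 with it (log2 fold change 0.74, adjusted p = 0.016), which was lost without replicate 1 or 2 of the ActA pre-ME or replicate 2 of the pre-ME without ActA (adjusted p up to 0.141). In sorted cells it was higher still. It had 567 and 579 in cjPGCLCs with ActA, 844 and 826 without, 816 and 842 in somatic cells with ActA, and 773 and 808 without. No sorted library overlapped pre-ME of its arm. The log2 fold changes against pre-ME were 0.59 (adjusted p = 0.0181, lost without any 1 of the 4 libraries with adjusted p up to 0.103) and 1.88 (adjusted p = 1.81e-06) in cjPGCLCs, and 1.12 and 1.78 in somatic cells. The lower level in cjPGCLCs than in somatic cells of the ActA arm (-0.52, 95% interval -0.93 to -0.12) did not pass adjustment (adjusted p = 0.152).

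KDM1A (LSD1) and KDM1B (LSD2) both remove mono- and dimethyl marks from H3K4, and KDM1B is known for its part in setting maternal imprints in oocytes. They moved differently. KDM1B had 149 and 132 normalised counts in pre-ME with ActA, 318 and 307 in cjPGCLCs and 365 and 355 in somatic cells. Without ActA it had 143 and 122 in pre-ME, 269 and 281 in cjPGCLCs and 367 and 374 in somatic cells. The pre-ME libraries lay below every sorted library. It rose by 1.15 (SE 0.18, edgeR adjusted p = 8.94e-05) and 1.03 in cjPGCLCs and by 1.35 and 1.45 in somatic cells, and these 4 calls passed under every alternative. KDM1A had 3417 and 3073 in pre-ME with ActA and 2504 and 2497 in cjPGCLCs, and fell by 0.37 there (adjusted p = 0.0119). That call was lost without replicate 1 of pre-ME (adjusted p = 0.124) or either cjPGCLC library, and with no filter on low counts. Its other 3 comparisons with pre-ME gave log2 fold changes of -0.28, -0.19 and 0.11 that did not pass.

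The KDM5 enzymes remove the H3K4 trimethyl mark of promoters. KDM5A had 693 and 640.4 normalised counts in pre-ME with ActA and 615 and 439 without. It had 1010.0 and 1037 in cjPGCLCs with ActA, 1006 and 1187 without, and 1146 to 1374 in the somatic libraries. It rose in all 4 comparisons, by 0.62 (edgeR adjusted p = 0.00423), 1.04, 0.93 and 1.10 in cjPGCLCs and somatic cells with and without ActA in turn. KDM5B, its close relative, rose by 0.74 and 0.64 in cjPGCLCs and by 0.99 and 0.86 in somatic cells. Of these, the rise in cjPGCLCs without ActA was 0.46 and not called without replicate 2 of pre-ME (adjusted p = 0.0689). KDM5C rose in 1 of the 4 comparisons (0.42 in somatic cells without ActA, adjusted p = 0.0272, lost without replicate 2 of pre-ME or either somatic library with adjusted p up to 0.38).

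The KDM3 and KDM4 enzymes act on H3K9, and several KDM4 enzymes also on H3K36. KDM3A and KDM3B rose in all 4 comparisons, by 0.59, 0.40, 0.69 and 0.40 for KDM3A and by 0.36, 0.59, 0.56 and 0.69 for KDM3B, in cjPGCLCs with and without ActA and then in somatic cells. Both KDM3A calls without ActA were lost without any 1 of their 4 libraries (adjusted p up to 0.241 in cjPGCLCs and 0.235 in somatic cells). The KDM3B call in cjPGCLCs with ActA was likewise lost (up to 0.213), and the one without ActA was lost without replicate 2 of pre-ME (0.0566). KDM4B had 942 and 759.8 normalised counts in pre-ME with ActA and 659 and 521 without, and 1106 to 1304 in the 8 sorted libraries, all above both. Its log2 fold changes were 0.43 (adjusted p = 0.0351) and 1.07 (adjusted p = 6.65e-05) in cjPGCLCs, and 0.58 and 1.06 in somatic cells. The first was lost without replicate 2 of pre-ME (adjusted p = 0.301) or either cjPGCLC library, and the one in somatic cells with ActA without replicate 2 of pre-ME (0.112). KDM4C fell by 0.47 in somatic cells without ActA and did not pass in the other 3. DESeq2 did not make that call, and it was lost without either pre-ME library or replicate 2 of somatic cells (adjusted p up to 0.228). KDM4D was low throughout (17.9 to 54.5 normalised counts) and passed in none of the 4.

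KDM2B, which binds unmethylated CpG islands and recruits a form of PRC1, went the other way in the ActA arm. It had 2281 and 1827 normalised counts in pre-ME with ActA, 1096 and 1119 in cjPGCLCs and 1303 and 1346 in somatic cells. It fell by 0.89 (SE 0.17, edgeR adjusted p = 0.000386) and by 0.64 (adjusted p = 0.00475), and the second call was lost without replicate 1 of pre-ME (adjusted p = 0.0778). Without ActA the pre-ME level was already lower (1462 and 1030.3), and the log2 fold changes of -0.40 (95% interval -0.75 to -0.04) and -0.03 (-0.38 to 0.33) did not pass.

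**Figure D3:**
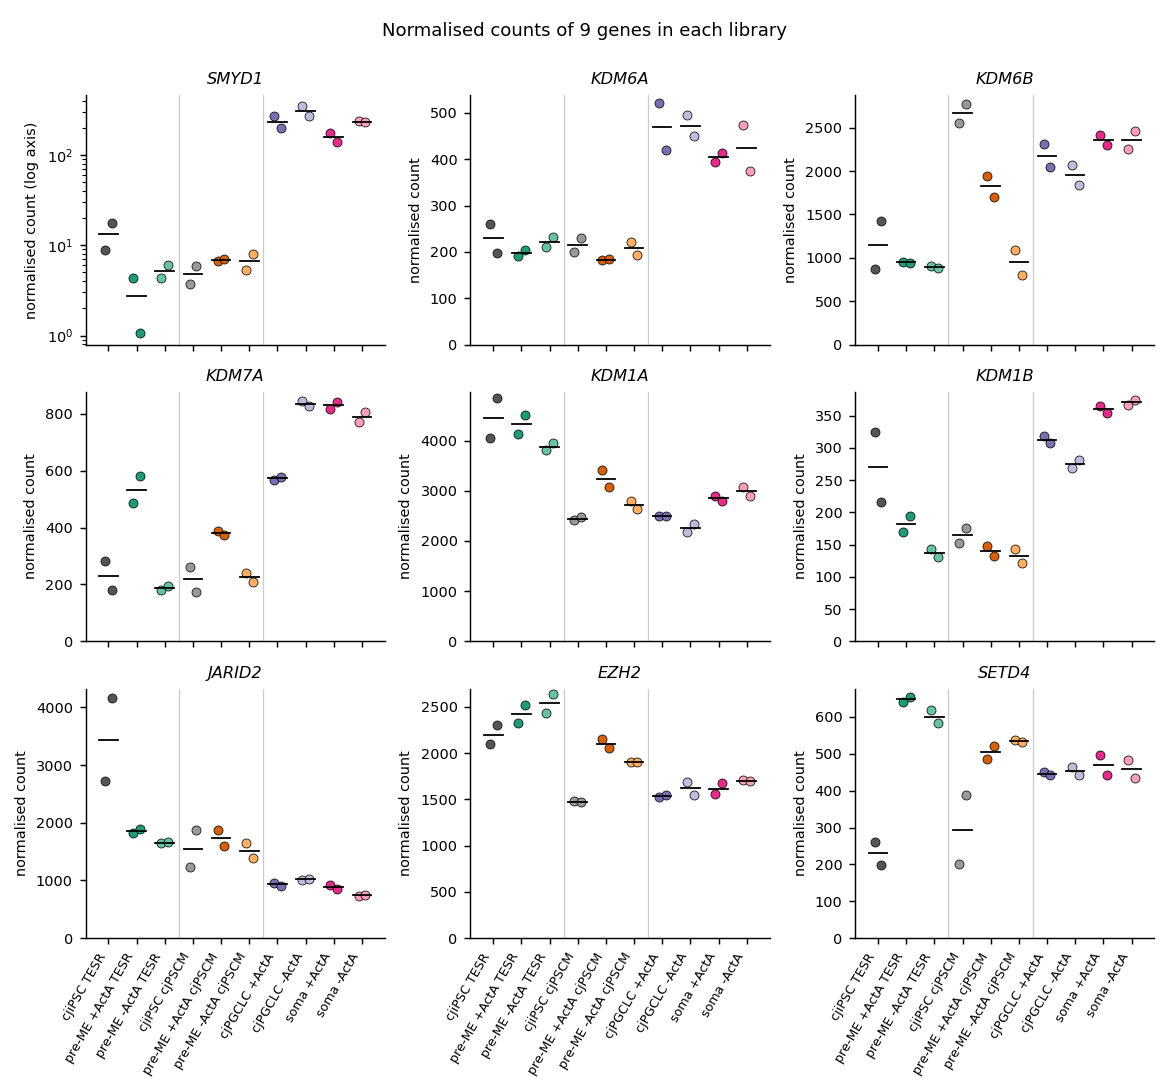
Each point is a library, 2 for each of the 10 conditions (x axis), and the y axis gives the normalised count, on a log axis for SMYD1 and from 0 for the other genes, with short lines at the means. KDM6A and KDM1B lie at 374 to 521 and 269 to 374 in sorted cells, above every pre-ME library of cjPSCM cultures, whereas JARID2 lies at 726 to 1021, below every other library.

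Among writers of H3K4 methylation, SMYD1 had by far the greatest change. SMYD1 is known as a methyltransferase of heart and skeletal muscle. It had 6.68 and 7.02 normalised counts in pre-ME with ActA and 5.31 and 7.93 without, close to the limit that a count of 3 sets. In cjPGCLCs it had 269 and 198 with ActA and 345 and 273 without. In somatic cells it had 175 and 140.1, and 239.8 and 229. The lowest of the 8 sorted libraries was at 140.1 and the highest of the other 12 at 17.9, in cjiPSCs in TESR. The log2 fold changes were 5.08 (SE 0.39, edgeR adjusted p = 6.12e-08) and 5.57 (adjusted p = 1.3e-08) in cjPGCLCs, and 4.50 and 5.15 in somatic cells. These calls passed under every alternative. cjPGCLCs and somatic cells did not differ past adjustment (0.58, adjusted p = 0.318, and 0.42, adjusted p = 0.426). HAND1, which the study counts among somatic genes, moved with it: its levels were 8.25 to 18.3 in cjPSCM pre-ME and 2135 to 4845 in the sorted libraries of both populations. The summed level of 3 amnion genes (ISL1, GABRP and VTCN1) also moved with it. That sum was 60.1 to 127 in cjPSCM pre-ME and 1542 to 2056 in the sorted libraries. The part of cells with these genes in the SMYD1 result was not tested.

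The other genes of H3K4 methylation changed in both directions. Of the 11 writers, SMYD1 included and KMT2E not counted, 3 rose and 1 fell in cjPGCLCs with ActA and 2 and 1 without, and 2 rose and 1 fell in somatic cells with ActA and 3 and 2 without. The KMT2 proteins are the large methyltransferases of COMPASS-like complexes, and KMT2E is a relative that binds the mark. KMT2E had 427 and 438 normalised counts in pre-ME with ActA and 493 and 433 without, 845 to 994 in cjPGCLCs and 939 to 1054 in somatic cells. It rose by 1.16 (SE 0.15, edgeR adjusted p = 1.13e-05) and 0.91 in cjPGCLCs and by 1.23 and 1.07 in somatic cells, under every alternative. KMT2C, which with KMT2D places the monomethyl mark at enhancers, rose by 0.83, 0.89, 0.86 and 0.91, and both calls without ActA were lost without replicate 2 of pre-ME (adjusted p = 0.0772 and 0.0625). KMT2D rose in somatic cells without ActA (0.79, adjusted p = 0.0173, but 0.247 and 0.13 without replicate 2 of pre-ME or of somatic cells) and did not pass in the other 3. SETD1A, the catalytic subunit that places much of the promoter trimethyl mark, had 2399.7 and 2053 in pre-ME with ActA, 1062 and 1109 in cjPGCLCs and 1213 and 1169 in somatic cells. It fell by 1.03 (adjusted p = 0.000302) and 0.91 in the ActA arm. Without ActA the values were -0.43 (95% interval -0.82 to -0.03) and -0.40 (-0.80 to -0.00), which did not pass. ASH2L, a shared subunit of these complexes, fell by 0.43 in cjPGCLCs and by 0.62 in somatic cells without ActA, the first lost without replicate 2 of pre-ME (adjusted p = 0.0715) or replicate 1 of cjPGCLCs (0.0645). SETD7, a monomethyltransferase of H3K4 that also modifies other proteins, fell by 0.99 in somatic cells without ActA (adjusted p = 0.00514, and 0.0543 without replicate 1 of somatic cells).

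PRC2 writes H3K27 methylation through EZH2 or EZH1, with EED and SUZ12 as core subunits and JARID2 as a DNA-binding partner that stimulates it. Of these 5 genes, 1 rose and 2 fell in cjPGCLCs with ActA, 0 and 2 without, and 1 and 2, and 1 and 1, in somatic cells. JARID2 fell in each comparison, EZH1 gave the rises, and SUZ12 had no call. JARID2 had 1869.9 and 1588 normalised counts in pre-ME with ActA and 1642 and 1391 without. It had 960.1 and 904 in cjPGCLCs with ActA and 1011 and 1021 without, and 914 and 848, and 726 and 755, in somatic cells. No sorted library reached a pre-ME library. It fell by 0.89 (SE 0.18, edgeR adjusted p = 0.000792) and 0.59 (adjusted p = 0.0159) in cjPGCLCs, and by 0.98 and 1.06 in somatic cells. The second of these calls was lost without replicate 1 of pre-ME or either replicate of cjPGCLCs (adjusted p up to 0.101), and the other 3 passed under every alternative. JARID2 was highest in cjiPSCs in TESR, at 2721 and 4154.

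EZH2 had 2153 and 2052 normalised counts in pre-ME with ActA, 1529.8 and 1544 in cjPGCLCs and 1555 and 1679 in somatic cells, and fell by 0.45 (edgeR adjusted p = 0.00223) and 0.39 (adjusted p = 0.00653). The call in somatic cells was lost without replicate 1 of pre-ME (adjusted p = 0.0569), without replicate 1 of somatic cells (0.0677) and with no filter on low counts. Without ActA it had 1904 and 1900.1 in pre-ME and 1552 to 1707 in sorted cells, with log2 fold changes of -0.24 (95% interval -0.46 to -0.02) and -0.19 (-0.41 to 0.03) that did not pass. EZH1, the less active paralogue that is common in cells that do not divide, had 196 and 216 in pre-ME with ActA, 401 and 371 in cjPGCLCs and 386 and 439.8 in somatic cells. It rose by 0.91 (adjusted p = 0.0148) and 1.00 (adjusted p = 0.00908), the first of which was lost without either pre-ME library or replicate 1 of cjPGCLCs (adjusted p up to 0.0985), and the second without replicate 1 of pre-ME (0.0705) or replicate 2 of somatic cells (0.0661). Without ActA it rose by 0.77 in somatic cells (adjusted p = 0.0389, lost without any 1 of the 4 libraries with adjusted p up to 0.221) and had a log2 fold change of 0.54 in cjPGCLCs (-0.05 to 1.13) that did not pass. EED fell by 0.43 in cjPGCLCs without ActA (adjusted p = 0.0198), which was lost without replicate 2 of pre-ME or either cjPGCLC library (adjusted p up to 0.108) and with no filter on low counts. SUZ12 ranged from 514 to 693 over all 20 libraries, and its 4 log2 fold changes lay between 0.00 and 0.11, with intervals from -0.24 to 0.36. With these genes moved genes of the cell cycle: of 11 proliferation genes, 7, 8, 10 and 8 fell in the same 4 comparisons and 1, 0, 0 and 0 rose. Their summed level was 30282 to 33266 normalised counts in cjPSCM pre-ME, 22973 to 26344 in cjPGCLCs and 20342 to 24360 in somatic cells. Their part in these results was not tested.

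Of the 6 writers of H3K9 methylation, 1 rose and 2 fell in cjPGCLCs with ActA, 1 and 1 without, and 0 rose and 1 fell in somatic cells of each arm. SUV39H1 was called only with ActA and SUV39H2 only without it, but no test compared the arms in this step. SUV39H1, which places the trimethyl mark at pericentric heterochromatin, had 373 and 357 normalised counts in pre-ME with ActA, 276 and 240.3 in cjPGCLCs and 235 and 227 in somatic cells. It fell by 0.49 (edgeR adjusted p = 0.00777, but 0.0594 and 0.0797 without replicate 1 of pre-ME or replicate 2 of cjPGCLCs) and by 0.67 (adjusted p = 0.00112). SUV39H2, its paralogue, fell in the other arm: from 266 and 322 in pre-ME without ActA to 185 and 154 in cjPGCLCs (-0.79, adjusted p = 0.00276) and 194 and 218 in somatic cells (-0.54, adjusted p = 0.0314, lost without replicate 2 of pre-ME or either somatic library with adjusted p up to 0.188). EHMT2 (G9a), which writes the H3K9 dimethyl mark with EHMT1, had 2844 and 2307 in pre-ME with ActA and 1558 and 1813 in cjPGCLCs, and fell by 0.61 (adjusted p = 0.00838, but 0.109 and 0.0869 without replicate 1 of pre-ME or of cjPGCLCs). In the other 3 comparisons its log2 fold change lay between -0.29 and -0.11 and did not pass. SETDB2 rose in cjPGCLCs of both arms, by 0.50 (adjusted p = 0.0343, lost with no filter on low counts and without any 1 of the 4 libraries, up to 0.216) and 0.68 (adjusted p = 0.00633, and 0.0663 without replicate 1 of pre-ME). It had 261 and 242, and 323 and 333, in cjPGCLCs against 188 and 197, and 184 and 252, in somatic cells. SETDB1, which acts with TRIM28 at retroelements, did not pass in any of the 4, with log2 fold changes of 0.03 to 0.28.

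Of the 5 writers of H3K36 methylation, 3 rose in each of the 4 comparisons, and 1 fell, in cjPGCLCs with ActA. Of the 3 of H4K20, 1 rose and 1 fell in both populations with ActA, and 2 rose in both without it. NSD3, a dimethyltransferase of H3K36, had 1181 and 1118 normalised counts in pre-ME with ActA and 1365 and 1033 without, and 1914 to 2494 in the 8 sorted libraries, with no overlap. It rose by 0.77 (SE 0.13, edgeR adjusted p = 0.000143) and 0.68 in cjPGCLCs and by 0.98 and 0.95 in somatic cells. ASH1L, also an H3K36 methyltransferase, had 464 to 673 in the 4 pre-ME libraries of cjPSCM cultures and 916 to 1128 in sorted cells, and rose by 0.78, 0.85, 0.74 and 0.85. SETD2, which writes the H3K36 trimethyl mark along transcribed genes, rose by 0.38, 0.62, 0.56 and 0.60. Of these, the first was lost without any 1 of the 4 libraries (adjusted p up to 0.188) and with no filter on low counts. NSD2, a dimethyltransferase of H3K36, gave the single fall (-0.45 in cjPGCLCs with ActA, edgeR adjusted p = 0.0331), lost without any 1 of the 4 libraries (adjusted p up to 0.153). KMT5B, which places di- and trimethyl marks on H4K20, had 429.9 to 512 in those pre-ME libraries and 782 to 867 in sorted cells, and rose by 0.84 (SE 0.12, adjusted p = 4.4e-05), 0.79, 0.85 and 0.81. KMT5A, the monomethyltransferase of the same residue, whose level follows the cell cycle, had 1620.4 and 1562 in pre-ME with ActA, 972 and 1089 in cjPGCLCs and 882 and 909 in somatic cells. It fell by 0.62 (adjusted p = 0.00625, and 0.0643 without replicate 1 of cjPGCLCs) and 0.84 (adjusted p = 0.000822) in the ActA arm. Without ActA the pre-ME level was lower, 985 and 983, and the log2 fold changes of 0.08 and -0.02 did not pass. KMT5C, which writes the H4K20 trimethyl mark, rose in both populations without ActA, by 0.67 and 0.65, and those calls were lost without replicate 2 of pre-ME (adjusted p = 0.0922 and 0.101) or replicate 1 of the sorted cells (0.114 and 0.116). DOT1L, the H3K79 methyltransferase, rose in somatic cells without ActA only among the 4 comparisons (0.86, adjusted p = 0.00683, and 0.1 without replicate 2 of pre-ME).

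The remaining genes with a SET domain act largely on non-histone proteins or have no settled substrate. SETD5 rose by 0.64, 0.63, 0.72 and 0.82 in cjPGCLCs and somatic cells with and without ActA, from 1669 to 2235 normalised counts in cjPSCM pre-ME to 2968 to 3646 in sorted cells, and the call in cjPGCLCs without ActA was lost without replicate 2 of pre-ME (adjusted p = 0.068). SMYD5 fell in all 4 comparisons, by 0.55, 0.54, 0.38 and 0.39, but the 2 calls in somatic cells were not made by DESeq2 (edgeR adjusted p = 0.0481 and 0.045). Those 2 were also lost without single libraries, with ActA without any but replicate 2 of pre-ME (adjusted p up to 0.334) and without ActA without any of the 4 (up to 0.132). In cjPGCLCs the calls of SMYD5 were lost without replicate 1 of pre-ME (0.0928) or of cjPGCLCs (0.0608) with ActA, and without replicate 2 of cjPGCLCs (0.0745) without it. SETD6 fell in 3 of 4, by 0.43 to 0.49, and each call was lost without single libraries. In cjPGCLCs with ActA these were any of the 4 (adjusted p up to 0.119), in cjPGCLCs without ActA any but replicate 2 of cjPGCLCs (0.148), and in somatic cells with ActA any but replicate 1 of somatic cells (0.279).

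The arms with and without ActA share no library. In cjPGCLCs, 18 genes rose in both arms, 90% of the 20 that rose with ActA and 85.7% of the 21 that rose without it, against 61.2% and 72.1% over all tested genes. Of the genes that fell, 3 did so in both arms, 27.3% of 11 and 50% of 6, against 54.2% and 67.5% over all genes. In somatic cells, 17 rose in both, 94.4% of 18 and 73.9% of 23 (61.7% and 71.4% over all genes), and 2 fell in both, 25% of 8 and 28.6% of 7 (61.3% and 68.5% over all genes). These shares were not tested against those of all genes. No gene rose in one arm and fell in the other.

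**Figure D4:**
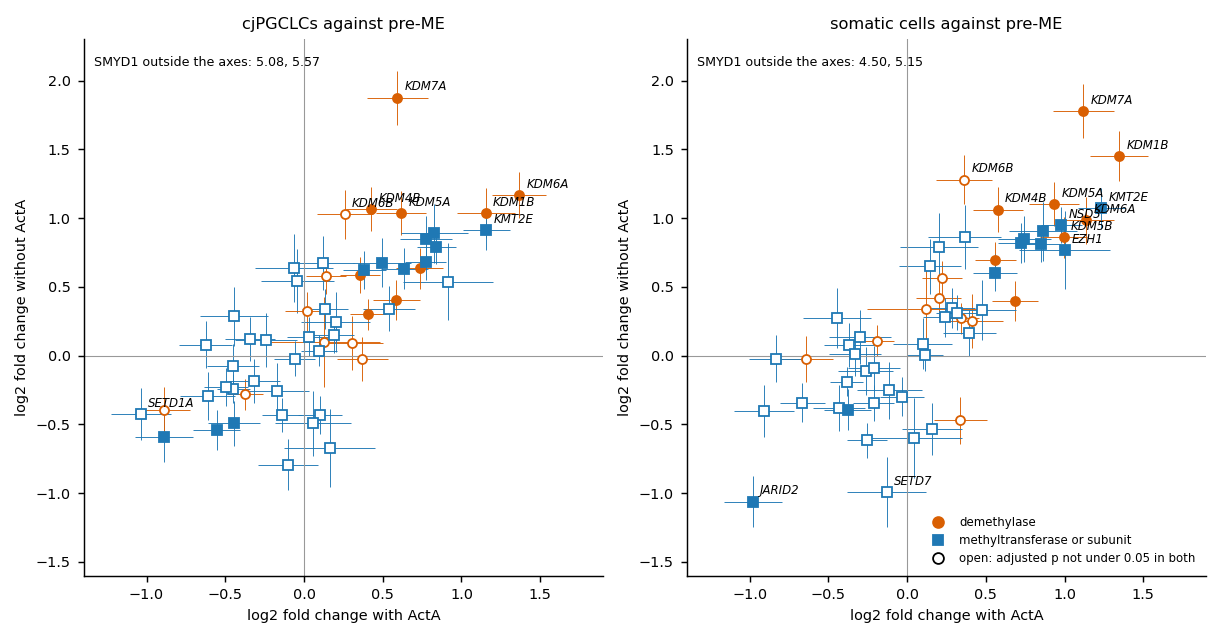
Each point is a gene, with its log2 fold change against pre-ME in the ActA arm on the x axis and in the arm without ActA on the y axis, for cjPGCLCs and for somatic cells. Lines through the points are standard errors, filled points were called in both arms, SMYD1 is outside the axes (5.08 and 5.57 in cjPGCLCs), and JARID2 lies below 0 on both axes.

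cjPGCLCs and somatic cells of the same arm had few called differences in these genes. None of the 56 genes differed with ActA (4.84% of all genes did), where 3 had an unadjusted p under 0.05 (15.7% of all genes) and DESeq2 called none. Without ActA, KDM1A differed (1 of 56 or 1.79%, against 9.63% of all genes, 6.67% higher and 2.96% lower), where 8 had an unadjusted p under 0.05 (21.1% of all genes). KDM1A had 2178 and 2331 normalised counts in cjPGCLCs and 3083 and 2893 in somatic cells. The groups did not overlap, and the log2 difference was -0.39 (SE 0.11, edgeR adjusted p = 0.0377). That call was lost without any 1 of the 4 libraries (adjusted p up to 0.257) and with no filter on low counts. With the replicate number as a block, SETDB2 was called too (0.60, adjusted p = 0.0481, against 0.0565 without the block). With ActA, KDM1A had 2504 and 2497 in cjPGCLCs and 2904 and 2797 in somatic cells, a log2 difference of -0.18 (95% interval -0.42 to 0.06) that did not pass.

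The precision of the sort comparison can be read from the intervals. The 95% intervals of the log2 difference lay within -1 and 1 for 55 of 56 genes in each arm, and reached from -0.93 to 1.17 with ActA and from -0.97 to 1.06 without. The median difference was -0.08 with ActA beside 0.01 over all genes. For EZH2 and SUZ12 of PRC2 the intervals were narrow: EZH2 differed by -0.06 (-0.29 to 0.16) and -0.05 (-0.28 to 0.17), and SUZ12 by -0.02 (-0.26 to 0.22) and 0.03 (-0.21 to 0.28). The intervals of EZH1, EED and JARID2 are not printed. EHMT2 had 1558 and 1813 in cjPGCLCs against 2268 and 2049.8 in somatic cells with ActA, a difference of -0.35 (-0.72 to 0.02), and -0.18 (-0.55 to 0.19) without. KDM6A differed by 0.23 (-0.12 to 0.58) and 0.18 (-0.17 to 0.54). Differences under about 1 on the log2 scale were thus not detectable for every gene, and their absence is not shown.

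**Figure D5:**
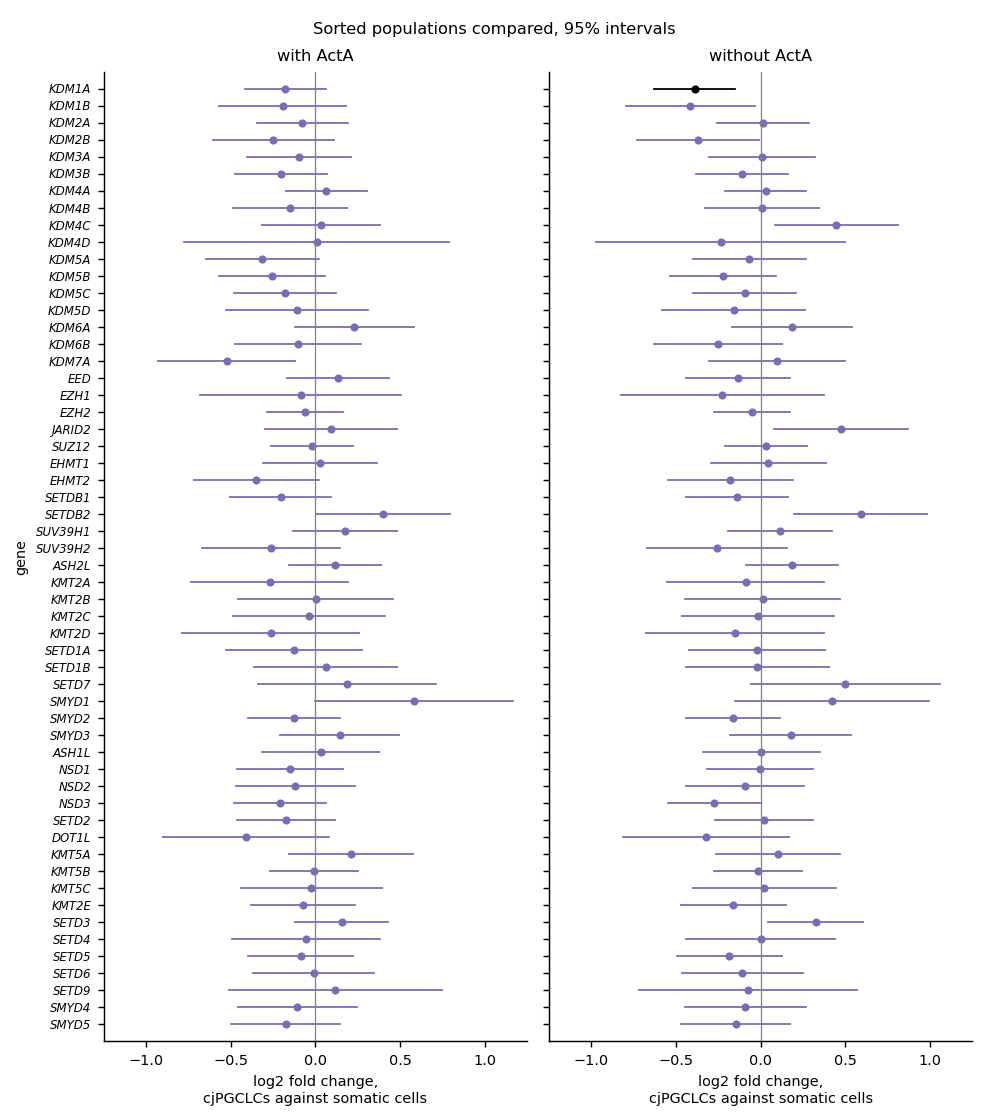
Points give the log2 fold change of cjPGCLCs against somatic cells for each tested gene and bars its 95% interval, with ActA on the left and without on the right. The intervals reach from -0.93 to 1.17 with ActA, and KDM1A without ActA (-0.39) is the only called gene.

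The sorted populations did differ in some germ cell genes. SOX17, a transcription factor that specifies primate germ cells, had 913 and 1034 normalised counts in cjPGCLCs with ActA and 2152 and 2096 without, against 48.4 to 219 in somatic cells. CXCR4, a sort marker in the study's methods, had 1128 to 1317 against 49.5 to 76.1, a difference that the sort itself selects for. NANOS3, a germ cell RNA-binding protein, had 14.2 to 61.5 in cjPGCLCs and 0 to 3.54 in somatic cells, while KIT did not differ past adjustment. The germ cell list held 5 genes, SOX17, TFAP2C, PRDM1, NANOS3 and KIT, and TFAP2C is not given singly. With ActA their summed level was 2107 and 2272 in cjPGCLCs against 1358 and 1649 in somatic cells. Without ActA it was 3533 and 3686 against 916 and 1199. Markers of other cell types were also measured. The summed level of 4 endoderm genes was 408 to 2321 in cjPGCLCs and 122 to 173 in somatic cells, with TTR at 0 in all somatic libraries and FOXA2 at 0 in those with ActA. The summed level of 3 mesenchyme genes was 1551 to 8491 in cjPGCLCs and 5704 to 11509 in somatic cells. Of 11 proliferation genes, 3 (TOP2A, CCNB1 and CDK1) were higher in cjPGCLCs in both arms. The part of these genes in the differences of the histone lysine methylation genes was not tested.

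ActA given at the pre-ME step left no called difference in the sorted cells. Among cjPGCLCs, 0 of 56 genes differed between the arms in edgeR and in DESeq2 (2.53% of all genes in edgeR), 2 had an unadjusted p under 0.05 (13.4% of all genes), and intervals reached from -1.15 to 0.79. Among somatic cells 0 differed by either tool (0.0253% of all genes in edgeR), 1 had an unadjusted p under 0.05 (3.91% of all genes), and intervals reached from -1.46 to 1.12. KDM7A had the lower level in cjPGCLCs with ActA noted above, a log2 difference of -0.55 (95% interval -0.95 to -0.15, adjusted p = 0.162). The interaction of sort and ActA called none of the 56 genes in edgeR or DESeq2 (0.0633% of all genes in edgeR), and 1 had an unadjusted p under 0.05 (6.25% of all genes).

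Undifferentiated cjiPSCs differed between media in 23 of the 56 genes, 8 higher and 15 lower in cjPSCM (41.1%, against 36.2% of all genes, 18.1% in each direction). The median log2 difference was -0.14 beside 0.00 over all genes. KDM6B, given above, was higher and JARID2 lower in cjPSCM (1238 and 1866 normalised counts against 2721 and 4154 in TESR, log2 difference -1.17, SE 0.18, edgeR adjusted p = 9.47e-05), and these 2 were the only calls that passed under every alternative. KDM4C had 172 and 151 in cjPSCM against 66.1 and 59.6 in TESR (1.33, adjusted p = 1.46e-05). KMT2C had 767 and 1485 against 565 and 475 (1.07), and DOT1L 1319 and 2416 against 650.0 and 1099 (1.08). Replicates in cjPSCM were far apart for both genes, although neither overlapped TESR. KDM1A had 2415 and 2468 in cjPSCM against 4058 and 4839 in TESR (-0.88, adjusted p = 1.36e-05), and SMYD2 519 and 477 against 859.9 and 890.4 (-0.83). KDM4D, at 28.3 and 19.3 against 54.5 and 43.2, was lower by 1.05 (adjusted p = 0.0222, but 0.172 and 0.094 without replicate 1 of TESR or replicate 2 of cjPSCM). In PRC2, EZH2 was lower in cjPSCM (1477 and 1470.5 against 2094 and 2301, -0.59), as was EED (-0.38, adjusted p = 0.0443, not called by DESeq2 and lost without either TESR library or replicate 1 of cjPSCM, up to 0.292), and EZH1 was higher (0.87, adjusted p = 0.0328) with 121 and 320.2 against 134 and 90.8, an overlap, and a log2 difference of 0.63 without replicate 2 of TESR (adjusted p = 0.164) and 0.04 without replicate 2 of cjPSCM (0.908). Of the 23 calls, 12 remained without replicate 1 of TESR, where SMYD1 passed in addition (13 in all), and 2 remained when the 4 cjiPSC libraries were fitted alone.

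Pre-ME was compared with the cjiPSCs of the same medium, and no test compared the media in this step. From TESR, 17 genes changed with ActA, 7 higher and 10 lower (34.5% of all genes changed, 17.3% higher and 17.1% lower), and 18 without, 11 higher and 7 lower (36.6% of all genes, 17.4% and 19.2%). From cjPSCM, 8 genes changed with ActA, 6 higher and 2 lower (17.7% of all genes, 7.42% and 10.3%), and 19 without, 11 higher and 8 lower (38% of all genes, 17.9% and 20.1%). The medians of the 56 genes lay between 0.04 and 0.12, beside -0.03 to 0.03 over all genes. Single libraries set several of these counts. From TESR with ActA there were 11 without replicate 1 of cjiPSCs and 9 and 11 without replicate 1 or 2 of pre-ME, and without ActA 10 without replicate 1 of pre-ME. From cjPSCM with ActA there were 2 and 23 without replicate 1 or 2 of cjiPSCs and 1 and 4 without replicate 1 or 2 of pre-ME. From cjPSCM without ActA there were 9 without replicate 1 of cjiPSCs and 12 and 10 without replicate 1 or 2 of pre-ME.

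SETD4, a methyltransferase linked to cell quiescence, rose in all 4 pre-ME conditions. It had 260.0 and 199.5 normalised counts in cjiPSCs in TESR, and 642 and 654 with ActA and 619 and 583 without in their pre-ME. In cjPSCM it had 199.7 and 388, then 487 and 522, and 538 and 533. All pre-ME libraries were above all cjiPSC libraries. The log2 fold changes were 1.49 (SE 0.21, edgeR adjusted p = 5.2e-05) and 1.38 from TESR, under every alternative, and 0.82 (adjusted p = 0.0123) and 0.92 (adjusted p = 0.00258) from cjPSCM. The call from cjPSCM with ActA was lost without replicate 1 of cjiPSCs (0.41, adjusted p = 0.144) or either pre-ME library. SETD4 was the only gene of the 56 that rose from both media without ActA, 9.09% of the 11 that rose in each, against 47% and 45.7% over all genes. KDM7A joined it with ActA, where these 2 were 28.6% of 7 and 33.3% of 6 (25.4% and 59.4% over all genes). KDM4B and KDM5A fell from both media without ActA, 28.6% of 7 and 25% of 8 (58.2% and 55.6% over all genes). KDM5A fell by 0.96 (adjusted p = 0.00021) and 0.63 (adjusted p = 0.00567). SETD7 fell from both with ActA, 10% of 10 and 50% of 2 (32.3% and 53.7% over all genes). From cjPSCM the KDM5A call was lost without replicate 1 of cjiPSCs (adjusted p = 0.08) or replicate 2 of pre-ME (0.0978), and from TESR the KDM4B call was lost without replicate 2 of cjiPSCs or either pre-ME library (up to 0.338). KDM7A from cjPSCM was lost without replicate 1 of pre-ME (0.0901). The SETD7 calls were lost without any 1 of the TESR libraries (up to 0.133), and in cjPSCM without replicate 1 of cjiPSCs (0.364) or either pre-ME library.

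From TESR, JARID2 fell to 1819 and 1888 with ActA and to 1646 and 1662 without (-0.87 and -1.04, edgeR adjusted p = 0.00138 and 0.000335), under every alternative. From cjPSCM the log2 fold changes were 0.18 (95% interval -0.20 to 0.56) and 0.01 (-0.37 to 0.39), and did not pass. KDM1B fell by 1.00 on the log2 scale without ActA, from 325 and 216 to 143 and 130.1 (adjusted p = 0.000394). In this medium DOT1L rose by 0.93 and 1.16, and KMT2D by 0.88 and 0.86, with and without ActA. With ActA both calls were lost without replicate 1 of cjiPSCs (adjusted p = 0.0782 for DOT1L and 0.102 for KMT2D), and KMT2D also without replicate 1 of pre-ME. Without ActA the KMT2D call was lost without replicate 1 of cjiPSCs (0.108) or either pre-ME library. With ActA, KDM4B fell by 0.87 (adjusted p = 0.000582, under every alternative) and KDM4D by 0.95 (adjusted p = 0.0266, lost without replicate 1 of cjiPSCs or either pre-ME library, up to 0.177). EZH1 rose by 1.19 without ActA, to 259 and 265, and KDM4C by 0.95. SMYD1, which was already low, fell by 2.08 with ActA (from 8.81 and 17.9 to 4.38 and 1.06, adjusted p = 0.00563). That call was lost without replicate 2 of pre-ME (-1.41, adjusted p = 0.0702) and in the fit to the 4 libraries alone, and both pre-ME levels were near the limit of 3 counts. From cjPSCM without ActA, SUV39H2 rose to 266 and 322 from 160.1 and 200.1 (0.75, adjusted p = 0.00506), SETDB2 by 0.59 and SETD9 by 0.76, and KMT5C fell by 0.77. Without replicate 1 of cjiPSCs, SUV39H2 and SETDB2 were lost (adjusted p = 0.0551 and 0.228), without its replicate 2 SETD9 and KMT5C (0.281 and 0.056), and without replicate 2 of pre-ME SUV39H2, SETDB2 and SETD9 (0.0508, 0.0975 and 0.24). In PRC2, EZH2 rose from cjPSCM in both arms, by 0.53 with ActA (adjusted p = 0.00244) and by 0.40 in its absence (adjusted p = 0.00682). Without ActA EED rose by 0.40 (adjusted p = 0.0315, not called by DESeq2) and SUZ12 by 0.34 (adjusted p = 0.0267). EED was lost without replicate 1 of cjiPSCs (0.265) or replicate 2 of pre-ME (0.153), and SUZ12 without any 1 of the 4 libraries (up to 0.0853). KDM2B rose by 0.57 with ActA (adjusted p = 0.0265, lost without replicate 1 of cjiPSCs or of pre-ME, up to 0.283). When the libraries of each of these cjPSCM comparisons were fitted alone, no gene passed with ActA and KDM6B alone passed without it.

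ActA changed few of the genes in pre-ME. In TESR pre-ME, KDM7A was higher and KDM4C lower (2 of 56 or 3.57%, against 8.84% of all genes, 5.63% higher and 3.2% lower), and KDM4C, at 84.8 and 78 with ActA against 119 and 124 without (-0.58, edgeR adjusted p = 0.0281), was lost without any 1 of the 4 libraries (adjusted p up to 0.226). In cjPSCM pre-ME 7 genes differed, 6 higher and 1 lower (12.5%, against 20.9% of all genes, 11.4% higher and 9.54% lower). The 6 were KDM6B (0.92, adjusted p = 0.00245), KDM7A (0.74), KDM2B (0.70, adjusted p = 0.00833), KMT5A (0.67, adjusted p = 0.0115), KDM4B (0.51) and KDM2A (0.44, adjusted p = 0.0235), 5 of them demethylases. SUV39H2 was lower (190.2 and 216 against 266 and 322, -0.55, adjusted p = 0.0417). None of these 7 calls passed without replicate 2 of the pre-ME without ActA, where KDM6B had 0.71 (adjusted p = 0.0566), and the other 6 had adjusted p of 0.0818 to 0.277. The count was 1 without replicate 1 of the pre-ME with ActA and 11 without replicate 1 of the pre-ME without it. The interaction of medium and ActA called 0 of 56 genes in edgeR (0.399% of all genes), 12 with an unadjusted p under 0.05 (17.4% of all genes), and 1 in DESeq2, so a different response to ActA between media was not shown. KDM6B, with a difference of the 2 responses of 0.84 (95% interval 0.31 to 1.37), had an adjusted p of 0.147.

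Proteins that work with these enzymes were examined as a second list of 59 genes, 55 of them tested. At day 4, 17 rose and 18 fell in cjPGCLCs with ActA (30.9% and 32.7%, against 25.3% and 23% of all genes) and 14 and 11 without (25.5% and 20%, against 21.5% and 18.5%). In somatic cells 14 rose and 15 fell with ActA (25.5% and 27.3%, against 23.8% and 24.2%) and 15 and 10 without (27.3% and 18.2%, against 20.6% and 21.7%). Of 9 COMPASS subunits, 5 fell and 1 rose in each population with ActA. Without ActA, 2 fell and 1 rose in cjPGCLCs, and 1 fell and 1 rose in somatic cells. Of 16 PRC1 genes, 5, 2, 5 and 4 rose and 5, 2, 4 and 1 fell. PCGF5, which defines a form of PRC1, had 302 and 329 normalised counts in pre-ME with ActA, 3036 and 2599 in cjPGCLCs and 2560.3 and 2913 in somatic cells. It rose by 3.17 (SE 0.20, edgeR adjusted p = 6.67e-09) and 3.11, and by 2.40 and 2.41 without ActA. CBX6, a chromodomain subunit of PRC1, fell by 1.78, 1.44, 1.93 and 1.79. EPOP, a PRC2 partner, fell in cjPGCLCs by 1.39 and 1.31 (adjusted p = 0.00631 and 0.00976). MECOM, a PR-domain transcription factor, rose by 3.16, 3.13, 3.26 and 3.68. PRDM14, a PR-domain factor of pluripotent and germ cells, was called lower in cjPGCLCs of both arms and in somatic cells without ActA, with 11.2 to 34.2 normalised counts in pre-ME and 0 to 3.15 in sorted cells, levels at or near the limit of 3 counts.

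CBX5, the H3K9 reader HP1α, rose by 1.19 and 1.02 in cjPGCLCs and by 1.44 and 1.35 in somatic cells, whereas its relative CBX3 (HP1γ) separated the sorted populations. CBX3 had 3618 and 4065 normalised counts in cjPGCLCs against 2582 and 2767 in somatic cells with ActA (0.53, SE 0.13, edgeR adjusted p = 0.0225), and 5539 and 6183 against 2966 and 2932 without (1.01, adjusted p = 7.16e-05). PRDM1 (BLIMP1), a repressor that restrains somatic genes in germ cell precursors, had 221 and 196, and 288 and 279, in cjPGCLCs against 86.8 and 93.9, and 99.2 and 85.1, in somatic cells. It was higher in cjPGCLCs by 1.22 (adjusted p = 0.00923) and 1.65 (adjusted p = 0.000432), and against pre-ME it fell in somatic cells by 1.50 and 1.97. PHF19, a PRC2 partner, was higher in cjPGCLCs without ActA (0.74, adjusted p = 0.0235). PRDM16 had no count in pre-ME of cjPSCM cultures and 7.88 to 11.4 in cjPGCLCs, at least 3.33-fold and 4.07-fold higher by the mean limit of 3 counts a library. In all, 2 of the 55 partners were higher in cjPGCLCs than in somatic cells with ActA (3.64%, against 3.68% of all genes) and 4 without (7.27%, against 6.67%), and none was lower.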

How the data were processed

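Poly(A) RNA of 20 libraries was sequenced as paired ends by the study. Per the submitters' processing notes and the study's methods, the authors checked reads with FastQC 0.11.8, aligned them to calJac4 with STAR 2.7.0a, counted them with HTSeq-count 0.11 and normalised with DESeq2. The annotation release and strand setting are not given in the sources used here, so overlapping and antisense genes may share reads. Of 2 RNA kits named in the labels, none is tied to a sample. The deposited tables hold raw read counts per gene and the authors' size-factor-normalised counts, a signal equal to the raw count divided by a library factor (largest relative deviation 5.33e-15). There were 0 columns without a sample. Depth was 4784964 to 22067099 counted reads a library, which limits genes near a count of 3 to coarse levels.

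Groups follow the labels. The main test was edgeR 4.0.16 (quasi-likelihood, limma 3.58.1, R 4.3.3) on the counts of all 20 libraries with 1 coefficient per condition, TMM scaling and filterByExpr (15797 of 25102 genes kept), which left 10 residual degrees of freedom. P-values were adjusted by Benjamini-Hochberg over all tested genes, and a call needed an adjusted p under 0.05. Intervals are 95% and two-sided. Interactions were contrasts of the same fit. Alternatives were DESeq2 1.42.0, its size factors in edgeR, no filter on low counts, a replicate block, a fit to the libraries of each comparison and leaving out each library. The fitting steps were tested on simulated data. Replicate numbers were not taken as pairs. Python 3.11.15, pandas 2.3.3 and matplotlib 3.10.9 made summaries and figures.

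Any member could be named. Statistics were planned for up to 4 members each way with the greatest log2 fold change among called genes whose libraries did not overlap, and for the PRC2 genes, KDM6A and KDM6B. Some of these values, such as that of SETD7 in TESR pre-ME without ActA, are not printed. Further members were described by role after their values were seen. Partners, up to 3 each way by the same rule, were described for sorted cells only. The members follow from a rule on symbols. That rule, the partner list and the marker lists were set with earlier results of these data known. Enzymes were grouped by the residue they are best known for.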

Additional observations from a re-analysis of the deposited data

How the results depend on the processing

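Counts are of 56 genes. Fitting only the libraries of a comparison gave 2 calls between media (23 in the full fit), 9 and 0 in pre-ME with ActA from TESR and cjPSCM, 1 in pre-ME without ActA from cjPSCM, 16 and 12 for ActA in pre-ME of TESR and cjPSCM, 2 and 6 between sorted populations with and without ActA, 41 in somatic cells with ActA against pre-ME, 1 for ActA in cjPGCLCs, and 1 and 10 for the interactions of ActA with sort and with medium. With no filter on low counts 0 genes differed between sorted populations without ActA and 2 in the interaction with medium, for which DESeq2 called 1. With each library left out in turn, the counts ran from 13 to 23 between media. They ran from 9 to 18 and 10 to 19 in pre-ME from TESR with and without ActA, and from 1 to 23 and 9 to 20 from cjPSCM. For ActA in pre-ME they were 1 throughout in TESR and 0 to 11 in cjPSCM. Against pre-ME they were 18 to 21 and 18 to 27 in cjPGCLCs and 20 to 24 and 19 to 28 in somatic cells. They were 0 throughout between sorted populations, for ActA in sorted cells and for both interactions. An arm left with 1 library was assumed to vary like the others.

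Replicate numbers did not pair the libraries: the correlation of same-numbered deviations ran from -0.193 to 0.234 over 15 comparisons and passed 0.1 in 5. With the number as a block, 2 genes, KDM1A and SETDB2, differed between sorted populations without ActA, and the other counts stayed within 1.5 times those without the block (17 in pre-ME without ActA from cjPSCM, for example, and 29 in somatic cells without ActA). A crossed pairing, chosen after seeing the data, gave 7, 18 and 31 calls against 8, 19 and 30 for pre-ME from cjPSCM with and without ActA and for somatic cells without ActA. No called value of a gene changed sign under any alternative, while 10 of 209 called values were lost with DESeq2, 35 with no filter, 6 with the block and 62 in the fits to single comparisons. The causes were not tested. Depth limits genes near a count of 3.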
